A study of Mus musculus with 2 samples.

Results

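The ligands of the bone morphogenetic protein (BMP) family and the protease BMP1 were followed across the stromal cells of intestinal grafts. Members were the rows whose symbol was Bmp1, Bmp2, Bmp3, Bmp4, Bmp5, Bmp6 or Bmp7, which gave 7 of the 28692 features in each of 2 single-cell RNA-seq libraries. Embryonic gut (E12.5) carrying EYFP on a C57BL/6 background, either small (SI) or large intestinal (LI), had been placed beneath the kidney capsule of adult wildtype recipients and recovered after 4 weeks. From each kind of graft, mesenchymal stromal cells (MSC) were sorted as live YFP+ Itgb1+ cells lacking CD45, Ter119, BP3, CD31, EpCAM and L1CAM, a gate for cells of donor origin that leaves out blood, endothelial, epithelial and glial cells. There was 1 library of LI graft, made from several grafts pooled before the sort, and 1 library of SI graft. The kit was either a 3′ or a 5′ version of the 10x Genomics system, and which library used which was not given in the sources used here, so graft and kit cannot be told apart. With 1 library per group and cells that are not replicates, no test was possible, and the intervals below are 95% intervals that cover counting error only.

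BMP ligands are secreted as dimers of the TGF-beta superfamily, bind type I and type II receptor kinases, and act through Smad1, Smad5 and Smad9 together with Smad4 to switch on targets such as the Id genes. In the gut wall the stroma is the main source of these ligands and of the secreted antagonists that bind them. BMP signalling is known to be high away from the crypt base and to favour differentiation of the epithelium, while antagonists such as Grem1 shield the stem cells. Fibroblasts (FB) with high PDGFRA are known to lie directly under the epithelium.

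After removal of barcodes with fewer than 500 genes, more than 10% mitochondrial UMIs (unique molecular identifiers, each counting 1 captured RNA molecule) or a high doublet score, 8882 LI and 7259 SI graft cells remained, with median depths of 5146.5 and 5547 UMIs. The libraries shared 26 barcodes. Each library was clustered with the BMP pathway genes kept out, and clusters were named from markers, so that every class name below means "like" that cell type. PDGFRAhi FB (648 cells in the LI and 335 in the SI graft) raised 8 (LI) and 9 (SI) of 12 markers. Fgfr2 FB numbered 1991 and 1054 cells, CD81 FB 1606 and 1125, other FB 2055 and 2713, smooth muscle cells (SMC) 406 and 392, and pericytes 526 and 732. CD81 FB raised 5 of 9 markers in each graft. Cd81, Pi16 and Scara5 were raised in both, Dpp4 and C3 in the LI graft alone, and Cd34 and Cd55 in the SI graft alone. Ackr4 was raised in neither and was a leading gene of an LI other FB cluster, so this name rests on part of its list. A cluster with both pericyte and SMC markers, called mural cells, held 84 and 472 cells. CD90/Igfbp5 FB were found in the LI graft with 558 cells, but raised only 2 of 5 markers (Igfbp5 and Pparg) and were led by Areg and Ereg. Interstitial cells of Cajal (ICC), the pacemaker cells of gut muscle, numbered 398 in the LI graft, but with only 32 cells the SI class was left out of the comparisons over classes and is described with the LI ICC clusters. Over these classes, the summed level of the markers of other cell types was between 1.94 and 117 CPM (UMIs of the genes relative to all UMIs of a class) for endothelial, 3.54 and 38.5 CPM for epithelial, 7.69 and 103 CPM for immune, 2.21 and 55.4 CPM for glial or neuronal, 0 and 139 CPM for mesothelial and 0 and 4.70 CPM for kidney tubule markers. Among cells that carried either Xist or Y-linked transcripts alone, 10.0% were male in the LI and 30.5% in the SI graft, so more than 1 embryo contributed to each library. In the LI graft, the CD90/Igfbp5 FB cluster (304 male against 36 female cells), an other FB cluster led by MHC class II genes (329 against 24) and the smaller ICC cluster (83 against 1) were mostly male. In the SI graft, the other FB cluster led by MHC class II genes was mostly male too (339 against 50). An SI CD81 FB cluster held 151 male and 131 female cells. In the mostly male clusters, cluster and embryo cannot be told apart.

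The promoters of 3 members could be read, and they are shown because the table used here held these alone. They belong to Bmp4, which was spread over many classes, to Bmp5, highest in PDGFRAhi FB, and to the scarcely detected Bmp6, and so few sequences say nothing on a link between promoter and class. In GRCm38, Bmp4 lies on chromosome 14 (46383520 to 46390669, minus strand), Bmp5 on chromosome 9 (75775364 to 75900310, plus strand) and Bmp6 on chromosome 13 (38345107 to 38500302, plus strand). The remaining members lie on chromosome 14 (Bmp1, 70474558 to 70520234, minus strand), chromosome 2 (Bmp2, 133552159 to 133562885, plus strand, and Bmp7, 172868012 to 172940321, minus strand) and chromosome 5 (Bmp3, 98854415 to 98884396, plus strand). The 250 bases before the RefSeq start (build GRCm38.p6), at chr14:46390670-46390919 for Bmp4, chr9:75775115-75775364 for Bmp5 and chr13:38345466-38345715 for Bmp6, read as follows on the strand of the gene, with a GC box (GGGCGG, on either strand) and an E-box (CACGTG) in capitals. The Bmp6 window lies inside the gene as drawn by GENCODE, whose start is upstream of the RefSeq start.
Bmp4 promoter: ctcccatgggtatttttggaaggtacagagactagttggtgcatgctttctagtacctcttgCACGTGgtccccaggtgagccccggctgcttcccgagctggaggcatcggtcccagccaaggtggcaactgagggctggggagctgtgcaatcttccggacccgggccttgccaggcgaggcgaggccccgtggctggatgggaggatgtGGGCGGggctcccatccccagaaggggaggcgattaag
Bmp5 promoter: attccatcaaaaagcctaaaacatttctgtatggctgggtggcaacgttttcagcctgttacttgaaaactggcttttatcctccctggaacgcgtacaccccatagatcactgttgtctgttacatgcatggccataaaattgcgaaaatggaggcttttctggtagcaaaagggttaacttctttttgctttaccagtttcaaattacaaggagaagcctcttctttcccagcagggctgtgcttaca
Bmp6 promoter: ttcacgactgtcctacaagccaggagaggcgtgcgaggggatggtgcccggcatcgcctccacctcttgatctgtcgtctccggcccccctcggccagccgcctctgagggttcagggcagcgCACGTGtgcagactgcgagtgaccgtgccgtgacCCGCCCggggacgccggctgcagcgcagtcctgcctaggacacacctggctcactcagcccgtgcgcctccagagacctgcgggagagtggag

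The Bmp4 promoter had 63.2% GC and 11 CpG, and the Bmp6 promoter 68.8% GC and 22 CpG, each with 1 GC box and 1 E-box. The Bmp5 promoter had 42.8% GC and 4 CpG, below the median of 52.4% GC over all 32851 promoters, and held neither motif. The GC box was found in 32.7% of all promoters of this length and the E-box in 6.02%. The TATA box (TATAAA, 12.4% of promoters), a forkhead core (TGTTTA, 12.0%) and the GLI motif (GACCACCCA, 0.225%) were searched on both strands and not found in these 3 windows. The motifs were chosen with these sequences in view.

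Of the 7 members, 6 reached 10 CPM in at least 1 class, and for each of these 6 the class with the highest level was the same in both grafts. The share of all genes with the same highest class in both grafts was not computed, so this count has no background. PDGFRAhi FB had the highest level of 4 members (Bmp2, Bmp3, Bmp5 and Bmp7), Fgfr2 FB of Bmp4 and CD81 FB of Bmp1. Against all other named stromal cells of the same library, 5 members were more than 2-fold higher in PDGFRAhi FB in both grafts, where 5.02% of 9036 genes in the LI and 7.17% of 9189 genes in the SI graft were. The log2 ratios were 2.74 in the LI and 2.01 in the SI graft for Bmp2, 4.68 and 5.49 for Bmp3, 1.27 and 1.27 for Bmp4, 3.90 and 4.39 for Bmp5, and 4.62 and 4.77 for Bmp7. In Fgfr2 FB only Bmp4 passed 2-fold (log2 1.73 and 1.78, background 3.37% and 2.64%). Under the other cell filters, cluster resolutions and settings tried, PDGFRAhi FB were highest for 4 or 5 LI and 4 SI members.

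**Figure D1:**
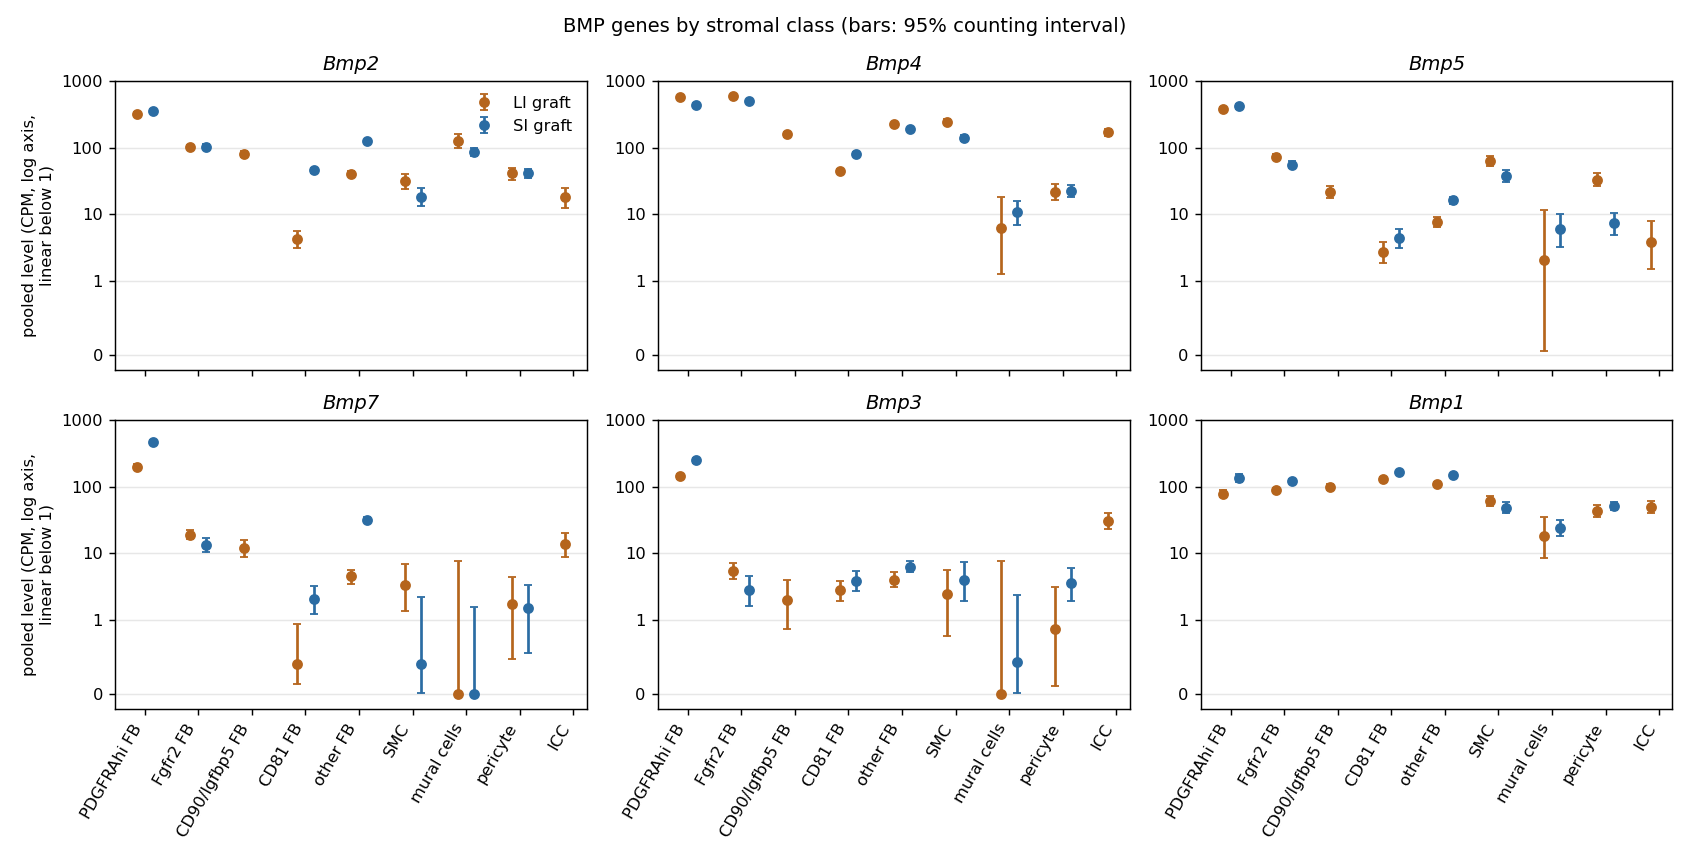
Level of each BMP gene (pooled CPM, log axis) in every named stromal class of the LI and SI graft, with bars for the 95% Poisson interval. Bmp3, Bmp5 and Bmp7 stand far above all other classes in PDGFRAhi FB, Bmp4 is at a similar height in Fgfr2 FB and PDGFRAhi FB, and Bmp1 is spread over all FB.

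Bmp2 and Bmp4 form the closely related pair that signals mainly through the BMP receptor Bmpr1a. Bmp2 was found at 319 CPM in LI and 356 CPM in SI PDGFRAhi FB. The next class differed between the grafts. In the LI graft it was the mural cells at 127 CPM, which could not be separated from Fgfr2 FB at 102 CPM (log2 difference 0.32, interval -0.07 to 0.69), followed by CD90/Igfbp5 FB at 80.2 CPM. In the SI graft it was other FB at 125 CPM, ahead of Fgfr2 FB at 104 CPM and mural cells at 85.4 CPM. Bmp2 in pericytes was nearly the same in both grafts, at 41.1 and 41.3 CPM. Levels in SMC were 31.5 and 18.5 CPM, and LI ICC had 17.9 CPM. CD81 FB were the lowest LI class at 4.24 CPM, whereas SI CD81 FB had 45.5 CPM, which did not differ from SI pericytes beyond counting error (0.14, interval -0.12 to 0.40).

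Bmp4 had the largest number of UMIs of all members, with 13849 in the LI and 8576 in the SI graft. It was highest in Fgfr2 FB, at 600.0 and 498 CPM, and next in PDGFRAhi FB, at 576 and 436 CPM. These neighbours did not differ beyond counting error in the LI graft (log2 0.06, interval -0.02 to 0.13) and differed slightly in the SI graft (0.19, interval 0.08 to 0.31). SMC (244 and 140.0 CPM) and other FB (230 and 193 CPM) came next, with SMC not separated from other FB in the LI graft (0.09, interval -0.05 to 0.22). In the LI graft, ICC had 169 CPM and CD90/Igfbp5 FB 159 CPM. CD81 FB were low for an FB class, at 44.7 and 80.4 CPM. The cells around vessels had little Bmp4, with 21.8 and 22.7 CPM in pericytes and 6.14 and 10.7 CPM in mural cells. Fgfr2 FB and PDGFRAhi FB were the SI classes whose share of cells with Bmp4 was above that of immune cells.

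Bmp5, Bmp6 and Bmp7 form another branch of the family, which binds mainly through Acvr1. Bmp5 was found at 381 and 415 CPM in PDGFRAhi FB. Fgfr2 FB followed at 73.5 and 55.6 CPM, a log2 distance of 2.36 (interval 2.23 to 2.49) in the LI and 2.88 (2.69 to 3.07) in the SI graft. SMC came close behind Fgfr2 FB with 63.4 and 38.1 CPM, and the interval of that difference held 0 in the LI graft (0.21, -0.06 to 0.49). Pericytes had 33.2 CPM in the LI but 7.30 CPM in the SI graft. CD90/Igfbp5 FB had 21.7 CPM, other FB 7.72 and 16.1 CPM, LI ICC 3.81 CPM, CD81 FB 2.69 and 4.41 CPM and mural cells 2.05 and 5.98 CPM. The share of SI cells with Bmp5 was above that of immune cells in PDGFRAhi FB alone.

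Bmp7 fell steeply outside PDGFRAhi FB, apart from an SI cluster of other FB led by Wif1 that is described below. In PDGFRAhi FB, Bmp7 was found at 200.2 CPM in the LI and 466 CPM in the SI graft. The next class was Fgfr2 FB at 19.1 CPM in the LI graft (log2 distance 3.32) and other FB at 31.8 CPM in the SI graft (3.83, interval 3.68 to 3.98). LI ICC had 13.6 CPM and CD90/Igfbp5 FB 11.9 CPM, which did not differ beyond counting error (log2 0.18, interval -0.52 to 0.86). LI other FB lay further down at 4.48 CPM (1.23 below CD90/Igfbp5 FB, interval 0.73 to 1.72). SI Fgfr2 FB had 13.4 CPM. In both grafts CD81 FB (0.41 and 2.05 CPM), SMC (3.39 and 0.40 CPM) and pericytes (1.75 and 1.51 CPM) were near 0, and no Bmp7 UMI was counted in mural cells, which allows up to 6.14 CPM in the LI and 1.28 CPM in the SI graft at a limit of 3 UMIs. Bmp6, known for its role in iron sensing by liver endothelium, was barely detected, with 51 UMIs (0.97 CPM) in all LI and 39 UMIs (0.86 CPM) in all SI cells. It reached 10 CPM in no class, with 3.26 and 1.65 CPM in PDGFRAhi FB, 2.22 and 2.46 CPM in Fgfr2 FB, 4.10 (on 2 UMIs) and 0.85 CPM in mural cells and between 0 and 9 UMIs in each remaining class, and its order over classes could not be read at this depth.

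Bmp3, a divergent member known to oppose the other ligands by occupying a type II receptor, was found at 143 and 249 CPM in PDGFRAhi FB. In the LI graft the second class was ICC at 31.0 CPM (log2 distance from PDGFRAhi FB 2.17, interval 1.78 to 2.58), itself 2.31 above Fgfr2 FB at 5.46 CPM (interval 1.79 to 2.81). ICC were more than 2-fold above all other LI stromal cells for Bmp3 (log2 1.19, background 9.31%). In the SI graft the second class was other FB at 6.31 CPM, at a log2 distance of 5.10 (interval 4.83 to 5.37). All remaining classes lay at or below 5.46 CPM in the LI and 4.01 CPM in the SI graft, and neighbours among them could mostly not be told apart.

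Bmp1 is no ligand but a metalloprotease that trims procollagens and cleaves the antagonist chordin. It differed from the ligands in its highest class. CD81 FB, a class that was not found when both libraries were clustered together, were highest, at 131 and 165 CPM, followed by other FB at 111 and 147 CPM. This order did not hold for every cluster. The LI CD81 FB cluster led by Cthrc1 had 165 CPM. The larger one, led by Myoc, lay below the other FB clusters led by Fmo2 (137 CPM) and Kcnn3 (139 CPM). In the SI graft, the CD81 FB cluster led by Pi16 (147 CPM) lay below the other FB cluster led by Hpgd (176 CPM). LI CD90/Igfbp5 FB (98.4 CPM), Fgfr2 FB (87.9 CPM) and PDGFRAhi FB (78.8 CPM) were neighbours whose differences held 0, as did those between SI other FB, PDGFRAhi FB (136 CPM) and Fgfr2 FB (123 CPM). SMC had 62.0 and 48.6 CPM, pericytes 43.7 and 51.9 CPM, LI ICC 49.5 CPM, and mural cells the least, 18.4 and 23.9 CPM. The range over FB classes was thus under 2-fold, with all FB above muscle and vessel-associated cells in both grafts.

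The share of cells with a UMI of a member was read after thinning every cell to 2000 UMIs, with the share at full depth in parentheses. In PDGFRAhi FB, Bmp4 was detected in 60.4% (81.6%) of LI and 54.3% (73.1%) of SI cells, and Bmp5 in 51.1% (78.2%) and 54.3% (80.6%). Bmp2 was detected in 38.0% (56.2%) and 45.0% (55.8%), Bmp7 in 31.0% (51.4%) and 55.7% (77.0%), and Bmp3 in 21.2% (36.6%) and 36.8% (58.2%). Thinning left out 16 LI and 44 SI PDGFRAhi FB. The Fgfr2 FB share for Bmp4 was 63.1% (85.9%) and 61.4% (86.4%), equal to or above that of PDGFRAhi FB. Mural cells, at a median of 5521 and 4507.5 UMIs, give the level in cells that have little of these genes. There Bmp4 was found in none of 82 LI cells (upper bound 4.40%) and 2.42% of SI cells, Bmp5 in 1.22% and 1.10%, Bmp3 and Bmp7 in none (upper bounds 4.40% and 0.809%), and Bmp2, in which mural cells were high, in 22.0% and 13.2%. Of the 40 immune cells of the LI graft (median 2422.5 UMIs), 24 were deep enough to thin, and 4.17% of these had Bmp4 and as many Bmp2. Over all 40 cells there were 2 UMIs of Bmp4, 1 of Bmp2, 2 of Bmp5, 1 of Bmp7 and none of Bmp3. Of the 45 immune cells of the SI graft (median 3717 UMIs), 36 could be thinned, with Bmp4 in 44.4% of them (interval 27.9% to 61.9%), Bmp1 in 22.2%, Bmp5 in 11.1%, Bmp2 in 5.56%, Bmp7 in 2.78% and Bmp3 in none, and the class carried 6410 CPM of the FB gene Adamdec1, so SI shares below these are given as values only. That holds for Bmp4 in other FB (28.0%), SMC (21.9%), CD81 FB (13.1%), pericytes (5.13%) and mural cells, for Bmp5 in every class but PDGFRAhi FB, with Fgfr2 FB at 10.6% and SMC at 9.33%, and for Bmp2 in SMC (4.27%). It also holds for Bmp7 in all but PDGFRAhi FB and other FB (4.58%), and for Bmp1 in Fgfr2 FB (21.8%), SMC (9.07%), pericytes (7.78%) and mural cells (4.41%). Epithelial cells of the SI graft (47 cells, median 10775 UMIs) had each of the 5 ligands in between 2.38% and 7.14% of the 42 that could be thinned.

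Many PDGFRAhi FB had more than 1 ligand detected, a share that rises with the share of each ligand alone. Whether it exceeded the share for independent detection was not tested. Of Bmp2, Bmp3, Bmp4, Bmp5 and Bmp7, at least 2 were detected in 64.1% of 632 LI PDGFRAhi FB (interval 60.2% to 67.8%) and in 80.1% of 291 SI PDGFRAhi FB (75.0% to 84.5%) at 2000 UMIs per cell. None was detected in 8.86% and 1.37%. In Fgfr2 FB, 20.3% and 17.4% of cells had at least 2, in other FB 4.31% and 10.4%, and in SMC 5.51% and 4.80%. In CD81 FB, pericytes and mural cells, the shares were between 0 and 2.73%. In both grafts the share of cells with several ligands was thus highest in PDGFRAhi FB. The order of the grafts did not hold when each cell was gated by its own marker score, with 56.6% of LI and 50.7% of SI PDGFRAhi FB.

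**Figure D2:**
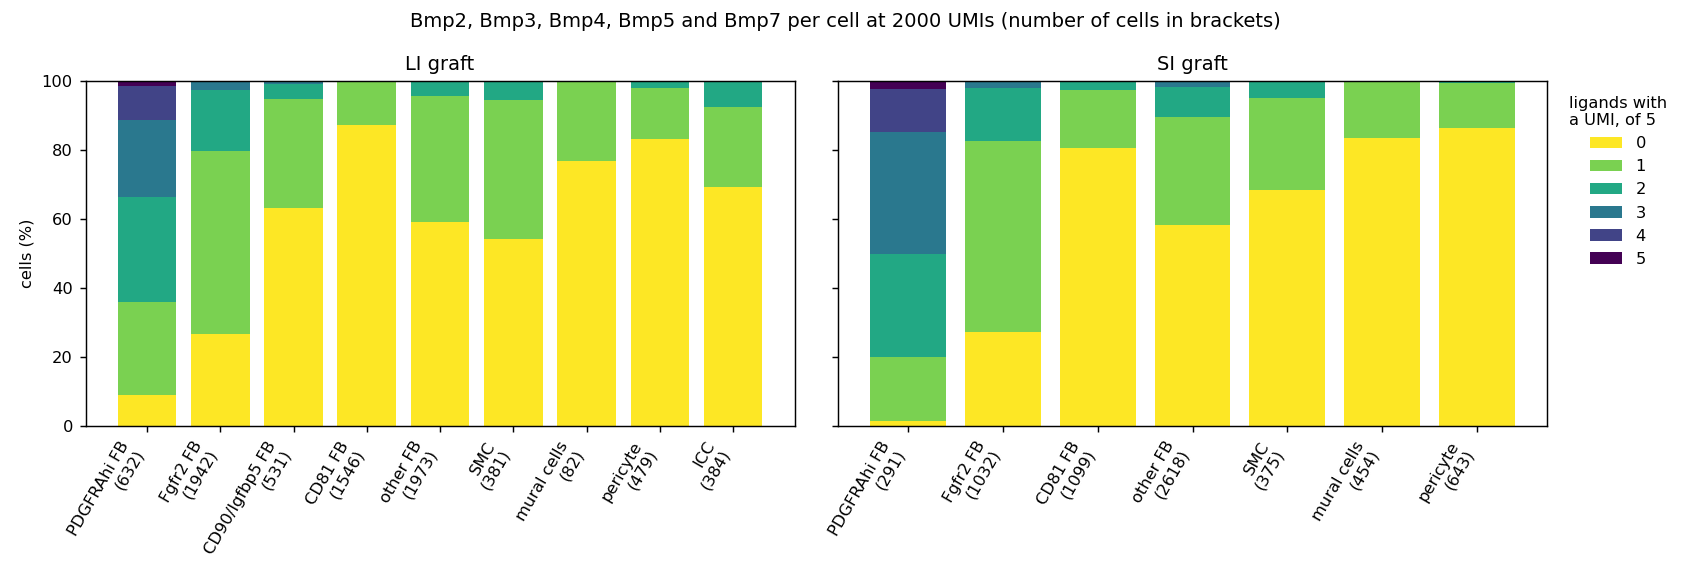
Share of cells (percent, stacked) with 0 to 5 of the ligands Bmp2, Bmp3, Bmp4, Bmp5 and Bmp7 detected, by class and graft, each cell thinned to 2000 UMIs. At least 2 ligands were detected in 64.1% of LI and 80.1% of SI PDGFRAhi FB, against 20.3% and 17.4% of Fgfr2 FB, while gating each cell on its own gave 56.6% of LI and 50.7% of SI PDGFRAhi FB.

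Within PDGFRAhi FB, pairs of ligands were not always found in the same cells. In the LI graft, Bmp3 was detected in 37.2% of cells with Bmp7 (interval 30.5% to 44.4%) and 14.0% of cells without it (10.9% to 17.6%), and in 26.7% of cells with Bmp4 against 12.8% of cells without. Bmp2 was found as often with Bmp5 (37.8%) as without it (38.2%). In the SI graft, Bmp3 was detected in 38.9% of cells with Bmp7 and 34.1% without, intervals that overlap, as do those for Bmp5, at 46.9% in cells with Bmp7 (39.0% to 54.9%) and 63.6% without (54.6% to 71.9%). The joint detection of Bmp3 and Bmp7 was thus seen in the LI graft, and the difference between the grafts was not tested.

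At a finer resolution the LI PDGFRAhi FB fell into 2 clusters that differed in Bmp3, Bmp7, Bmp4 and Bmp1. The first held 413 cells (median 5142 UMIs) and was led by Nrg1, an EGF-family growth factor, with Chp2 and Foxq1. It had 59.9 CPM of Bmp3 (interval 50.1 to 71.1), 130.3 CPM of Bmp7 (116 to 146) and 426 CPM of Bmp4 (399 to 454). The second held 252 cells (median 4805 UMIs) and was led by Sox6, with the retinoid enzyme Aldh1a2 among its leading genes. It had 266 CPM of Bmp3 (239 to 295), 294 CPM of Bmp7 (266 to 325) and 794 CPM of Bmp4 (747 to 844). Bmp1 was at 63.1 CPM (53.0 to 74.6) in the first and 102 CPM (85.5 to 121) in the second. Bmp2 (316 and 299 CPM) and Bmp5 (381 and 348 CPM) differed little between them. The SI PDGFRAhi FB stayed a single cluster of 337 cells at this resolution, with 250.2 CPM of Bmp3 and 465 CPM of Bmp7, close to the second LI cluster for Bmp3 and above both for Bmp7. Cells were clustered on these profiles, so the values describe the clusters and test nothing.

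Cd9 and Thbd, surface markers that divide PDGFRAhi FB, gave groups of LI cells that differed in Bmp3 and Bmp4, when cells were grouped on UMIs thinned to 2000 per cell and levels were taken from all their UMIs. Bmp3 was at 267 CPM in 75 Cd9+ Thbd+ cells and at 219 CPM in 125 Cd9- Thbd+ cells, but at 99.9 CPM in 148 Cd9+ Thbd- cells and 101 CPM in 284 cells with neither. Bmp4 followed it, with 815 and 705 CPM in the Thbd+ groups and 502 and 495 CPM in the Thbd- groups. Bmp7 did not follow Thbd in this way, since 244 CPM in Cd9- Thbd+ cells (interval 207 to 285) overlapped 210 CPM in Cd9+ Thbd- cells (179 to 244), with 317 CPM in Cd9+ Thbd+ cells and 147 CPM in cells with neither. In the SI graft Bmp3 varied less, with 207 CPM in Cd9+ Thbd+ cells, 305 CPM in Cd9- Thbd+ cells, 217 CPM in Cd9+ Thbd- cells and 246 CPM in cells with neither. A transcript missed at 2000 UMIs puts a cell among the negatives, so these groups overlap in what they hold.

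**Figure D3:**
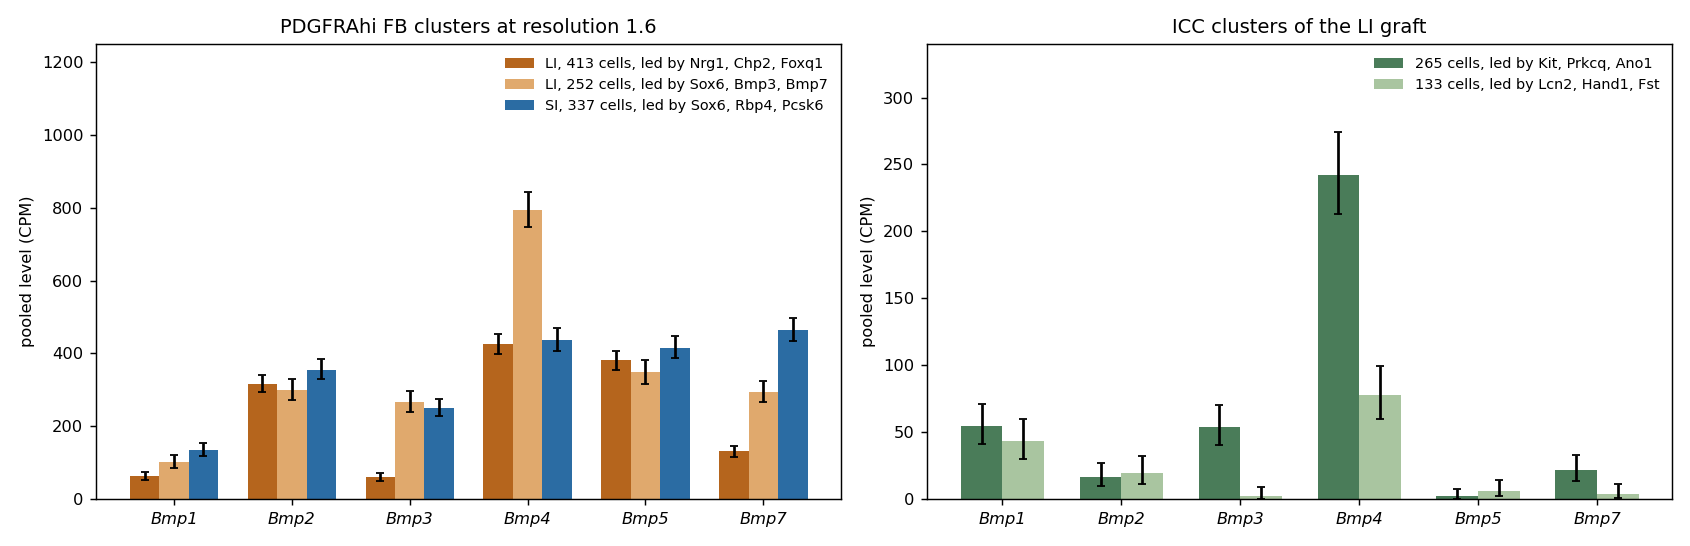
Levels (pooled CPM with 95% Poisson intervals) of the BMP genes in the finer clusters of PDGFRAhi FB and in the ICC clusters. The Sox6-led LI cluster has 266 CPM of Bmp3 against 59.9 CPM in the Nrg1-led cluster, and the Kit-led ICC cluster has 53.6 CPM against 2.46 CPM in the other ICC cluster.

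PDGFRAhi FB made up 7.30% of LI and 4.61% of SI cells, yet held most UMIs of some members. They held 67.1% of all LI and 69.1% of all SI Bmp3 UMIs, 64.4% and 55.2% of Bmp7, and 50.7% and 48.2% of Bmp5. Other FB held 37.3% of the SI Bmp7 UMIs. For Bmp2, PDGFRAhi FB held 31.4% in the LI and 14.5% in the SI graft, where other FB held 50.4%. For Bmp4, PDGFRAhi FB held 14.1% and 9.22%, and Fgfr2 FB 42.8% and 33.0%. Such shares move with the number of cells captured per class as well as with the level in each cell.

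Muscle and vessel-associated cells differed in the members they had. SMC, with all 9 muscle markers raised, had 244 CPM of Bmp4 and 63.4 CPM of Bmp5 in the LI graft and little Bmp3 or Bmp7 in either. In the SI graft the shares of SMC with Bmp4 (21.9%) and Bmp5 (9.33%) were not above those of immune cells (44.4% and 11.1%), and are not read as expression. SMC also carried 5070 (LI) and 3858 (SI) CPM of the FB gene Adamdec1, against 26.6 and 24.8 CPM in mural cells. Adamdec1 was at 8890 and 9071 CPM in Fgfr2 FB and at 13002 and 4361 CPM in PDGFRAhi FB. Per 1000 Adamdec1 UMIs, SMC had 48.1 and 36.3 Bmp4 UMIs, Fgfr2 FB 67.5 and 54.9, and PDGFRAhi FB 44.3 and 100.04. For Bmp5 the same ratio was 12.5 and 9.88 in SMC, 8.27 and 6.13 in Fgfr2 FB, and 29.3 and 95.2 in PDGFRAhi FB. LI SMC thus lay between both FB classes in either ratio, SI SMC in the Bmp5 ratio but below both in the Bmp4 ratio, and the part of RNA from FB in the SMC levels was not tested. Mural cells had Bmp2 without the others, with 127 and 85.4 CPM and all ligands except Bmp2 at or below 10.7 CPM. Pericytes, with all 10 markers raised, had 41.1 and 41.3 CPM of Bmp2. Bmp2 was in 6.22% of SI pericytes, 7.01% of SI CD81 FB and 5.56% of SI immune cells (interval 0.68% to 18.7%). Bmp1 was in fewer pericytes (7.78%) than immune cells (22.2%). SI immune cells carried 6410 CPM of Adamdec1 against 17.1 CPM in SI pericytes, so they are an uneven background. Expression of Bmp1 and Bmp2 in SI pericytes, and of Bmp2 in SI CD81 FB, was not tested against free RNA.

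ICC of the LI graft were 2 clusters that differed in ICC markers as well as in Bmp genes. The larger (265 cells, 248 female and 1 male among sexed cells) had 1537 CPM of Kit, 986 CPM of Ano1 and 1205 CPM of Etv1, the receptor, chloride channel and transcription factor that define ICC. It had 53.6 CPM of Bmp3, 242 CPM of Bmp4 and 21.5 CPM of Bmp7. The smaller (133 cells, 83 male and 1 female) had 350 CPM of Kit, with Lcn2, Hand1 and Fst as its leading genes, and 2.46 CPM of Bmp3, 77.5 CPM of Bmp4 and 3.69 CPM of Bmp7. Its level of the antagonist Grem1 was 1379 CPM, against 57.5 CPM in the Kit-led cluster. Bmp3 in LI ICC was therefore a feature of the Kit-led cluster. The 32 ICC of the SI graft had 1333 CPM of Kit and 973 CPM of Ano1, nearer the Kit-led than the smaller LI cluster, and no UMI of Fst. They had 28.2 CPM of Bmp4, on 4 UMIs, and no UMI of Bmp3, which allows up to 21.2 CPM at a limit of 3 UMIs and 26.0 CPM by the Poisson interval, both below the 53.6 CPM of the Kit-led LI cluster.

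Between the grafts, 30 levels could be compared (members at 10 CPM in a class with at least 50 cells in both), and 5 differed by more than 2-fold. In PDGFRAhi FB only Bmp7 did, being lower in the LI graft (log2 LI over SI -1.21, interval -1.36 to -1.07), where 10.5% of 9107 genes passed 2-fold and the median gene was at -0.15. Bmp3 (-0.80, interval -0.98 to -0.61) and Bmp1 (-0.78, -1.03 to -0.52) were also lower in LI PDGFRAhi FB. Bmp4 was higher there (0.40, interval 0.28 to 0.52), while Bmp2 (-0.16, -0.30 to -0.02) lay at the median gene and Bmp5 (-0.12) had an interval that held 0. The direction of Bmp2 turned under several other settings, and its value ranged up to 0.285 when each cell was gated by its own marker score. Bmp7 fell to -0.66 under that gating and to -0.97 with a stricter cell filter, both short of 2-fold.

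In other classes the differences past 2-fold were for Bmp2 in CD81 FB (-3.15, interval -3.51 to -2.80, background 4.99%), Bmp2 (-1.60, interval -1.72 to -1.47) and Bmp7 (-2.58, interval -2.89 to -2.27) in other FB (background 5.49%), and Bmp5 in pericytes (2.04, interval 1.46 to 2.64, background 5.37%). No CD81 FB class was found when both libraries were clustered together, and under the other settings Bmp2 there was between -1.555 and -4.256. Adamdec1 was at 60.1 CPM in LI and 335 CPM in SI CD81 FB, and at 365 and 991 CPM in other FB. Its part in the Bmp2 and Bmp7 differences of these classes was not tested. In Fgfr2 FB no member passed 2-fold (background 5.17%), with Bmp1 lower in the LI graft (-0.48) and Bmp4 (0.27), Bmp5 (0.40) and Bmp7 (0.48) higher. In SMC, Bmp4 (0.80), Bmp2 (0.74) and Bmp5 (0.72) were all higher in the LI graft, none past 2-fold (background 6.75%). Mural cells had more Bmp2 in the LI graft (0.57, interval 0.14 to 0.98, background 14.7%), a direction that turned at resolution 0.4 (-0.596) and with a looser cell filter (-0.594), where the LI class held 610 and 677 cells in place of 84. Pericyte Bmp1 (-0.24), Bmp2 (-0.01) and Bmp4 (-0.05) had intervals that held 0. The pericyte difference in Bmp5 stayed past 2-fold under all settings in which pericytes formed a class of their own in both grafts, with values between 1.63 and 3.20. In the same class the 6 endothelial markers summed to 117 CPM in the LI (1 of them at 0) and 53.6 CPM in the SI graft (none at 0), the 6 glial or neuronal markers to 29.3 and 55.4 CPM (3 at 0 in each), and Adamdec1 was at 125 and 17.1 CPM. Their part in the Bmp5 difference was not tested.

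**Figure D4:**
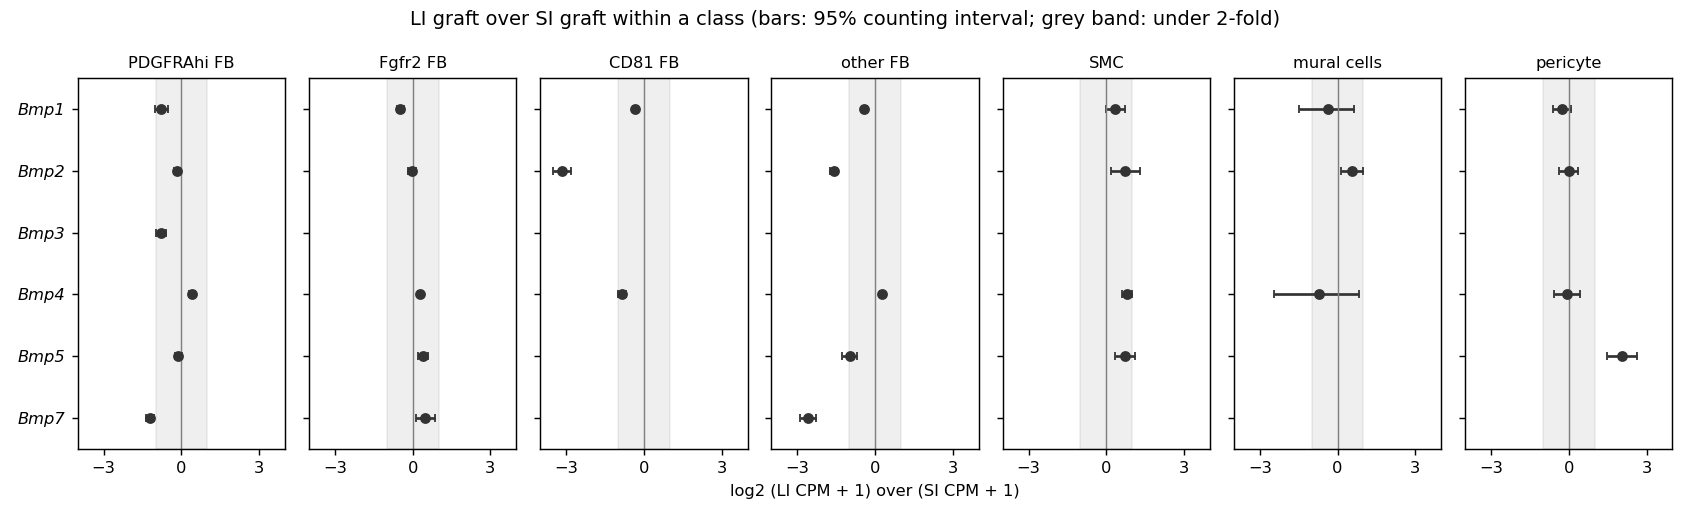
Log2 ratio of the LI over the SI level for each member at 10 CPM, by class, with 95% binomial intervals and a grey band for values under 2-fold. Bmp7 in PDGFRAhi FB (-1.21), Bmp2 in CD81 FB (-3.15) and other FB (-1.60), Bmp7 in other FB (-2.58) and Bmp5 in pericytes (2.04) lie past 2-fold.

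Other FB and CD81 FB were made of different clusters in the 2 grafts, so clusters that shared leading genes (at least 5 of 10 in other FB, 2 of 10 in CD81 FB) were set side by side, a choice made after the values were seen. The LI and SI clusters led by Fmo2, Lsamp and Cpz (773 and 906 cells) had 77.2 and 163 CPM of Bmp2 and 479 and 222 CPM of Bmp4. The clusters led by Kcnn3, Jam2 and Chodl (729 and 752 cells) had 30.6 and 52.2 CPM of Bmp2 and 222 and 50.4 CPM of Bmp4. Bmp2 was lower and Bmp4 higher in the LI cluster of both pairs. In the whole class Bmp4 was at a log2 of 0.25, which turned under 4 other settings (-0.088 to -0.221). The clusters led by MHC class II genes and Cxcl9 (525 and 551 cells) went the other way for Bmp4, with 12.8 CPM in the LI and 207 CPM in the SI graft, and had 11.5 and 97.1 CPM of Bmp2. The Bmp7 of SI other FB came mostly from a cluster of 474 cells led by Wif1, a secreted Wnt inhibitor, for which no LI cluster shared leading genes in this way. It had 176 CPM of Bmp7, 179 CPM of Bmp2, 255 CPM of Bmp4 and 45.2 CPM of Bmp5, and its sexed cells were 449 female and 0 male. In CD81 FB, the pair that shared Cthrc1 and Sfrp4 among leading genes (370 and 761 cells) had 2.16 and 14.2 CPM of Bmp2 and 8.45 and 28.1 CPM of Bmp4. The larger LI CD81 FB cluster, led by Myoc with 1236 cells, had no SI partner of this kind. Its Bmp4 lay above the levels of that pair, and its Bmp2 lay between them. The other SI CD81 FB cluster, led by Stmn4, Pcolce2 and Scara5 with 364 cells, had 107 CPM of Bmp2 and 183 CPM of Bmp4.

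Differences between male and female cells of a class were as large as those between grafts in places. In LI other FB, Bmp4 was at 364 CPM in 1492 female cells and far lower in 334 male cells (log2 male over female -4.93, interval -5.34 to -4.54). In SI other FB, Bmp7 was at 3.68 CPM in 605 male and 53.5 CPM in 1668 female cells (-3.54, interval -4.08 to -3.01). These splits follow the clusters of mostly 1 sex named above. In SI PDGFRAhi FB, Bmp2 was at 413 CPM in male and 304 CPM in female cells. The 18 male cells of LI PDGFRAhi FB had 540 CPM of Bmp7 and 320 CPM of Bmp3, against 190.0 and 138 CPM in 602 female cells. Cells of different sex come from different embryos, so sex and embryo cannot be told apart, and neither can embryo and graft.

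Of 7 receptor genes, 6 reached 10 CPM in each graft, and the spread over classes differed between them. Bmpr1a, the main type I receptor, ranged from 63.3 to 108 CPM over LI classes and from 62.4 to 79.9 CPM over SI classes, and Bmpr2, the type II receptor, from 76.9 to 120.0 CPM and from 72.0 to 101 CPM. Acvrl1, a type I receptor best known from endothelium, varied more, from 16.4 CPM in mural cells to 91.5 CPM in PDGFRAhi FB of the LI graft and from 29.5 CPM in mural cells to 75.8 CPM in pericytes of the SI graft. Among co-receptors, Rgma was highest in SMC (72.1 and 49.0 CPM), as was Tgfbr3 (183 and 198 CPM), and endoglin (Eng), another gene of that kind, reached 169 CPM in SI PDGFRAhi FB against 72.6 CPM in LI PDGFRAhi FB. All 4 transducers (Smad1, Smad4, Smad5 and Smad9) reached 10 CPM. The inhibitory Smad7, a feedback target of the pathway, was at 121 CPM in LI and 39.7 CPM in SI PDGFRAhi FB.

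Of 8 target genes, 7 reached 10 CPM in each graft, and PDGFRAhi FB were highest for 4 of them in the LI and 2 in the SI graft. Id1 was at 379 and 268 CPM in PDGFRAhi FB, with 323 and 176 CPM in pericytes and 24.3 to 84.2 CPM in Fgfr2 FB, CD81 FB, other FB and SMC of both grafts. Id2 was at 472 and 419 CPM in PDGFRAhi FB. Id3 was at 2796 CPM in LI and 1195 CPM in SI PDGFRAhi FB (log2 1.23, interval 1.16 to 1.29), and the SI maximum of 2430 CPM was in mural cells. Id4 was a gene of SMC, at 492 and 332 CPM. Id1 was higher in the LI graft in PDGFRAhi FB (0.50), Fgfr2 FB (1.75), CD81 FB (1.18), other FB (0.99), SMC (0.91) and pericytes (0.87), and lower in mural cells (-0.81, interval -1.22 to -0.42). Bambi, a pseudoreceptor that is itself a target, was at 75.8 and 94.0 CPM in mural cells, which in the LI graft was no more than the 75.0 CPM of SMC within counting error, and at 62.5 CPM in LI and 17.1 CPM in SI PDGFRAhi FB.

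The antagonists differed in where they were found relative to the ligands. Of 14 antagonist genes, 12 reached 10 CPM in each graft. Grem1, which binds Bmp2, Bmp4 and Bmp7, was at 20.4 CPM in LI and 7.72 CPM in SI PDGFRAhi FB. Grem1 was also low in pericytes (19.2 and 29.7 CPM) and mural cells (8.19 and 12.4 CPM). It was at 2473 CPM in CD90/Igfbp5 FB, 516 and 1355 CPM in SMC, 473 and 1103 CPM in other FB, 188 and 634 CPM in Fgfr2 FB and 133 and 366 CPM in CD81 FB, and in each of the last 4 of these classes it was lower in the LI than in the SI graft (log2 -1.22 to -1.75), while LI PDGFRAhi FB had the higher level (1.30). By contrast, Nbl1 (1296 and 2211 CPM) and Twsg1 (202 and 318 CPM), secreted BMP-binding proteins, were highest in PDGFRAhi FB. Chordin (Chrd), the substrate of Bmp1, was at 19.5 CPM in LI and 76.1 CPM in SI PDGFRAhi FB (log2 -1.91), and follistatin (Fst) at 8.89 and 90.5 CPM (-3.21). Fst was highest in LI ICC, at 965 CPM, and there 1734 CPM in the smaller, mostly male cluster against 356 CPM in the Kit-led cluster. Chrdl1 was highest in SMC (51.3 and 43.7 CPM), and Fstl3 in LI CD90/Igfbp5 FB (64.2 CPM) and SI mural cells (47.8 CPM). Chrdl2 was found in CD90/Igfbp5 FB (265 CPM), ICC (239 CPM) and LI other FB (88.7 CPM). In SI other FB it was at 2.68 CPM (log2 LI over SI 4.61, interval 4.29 to 4.92). Fstl1 was found in all classes with a maximum in CD81 FB (1293 and 1231 CPM). Bmper was highest in LI CD81 FB at 74.2 CPM.

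**Figure D5:**
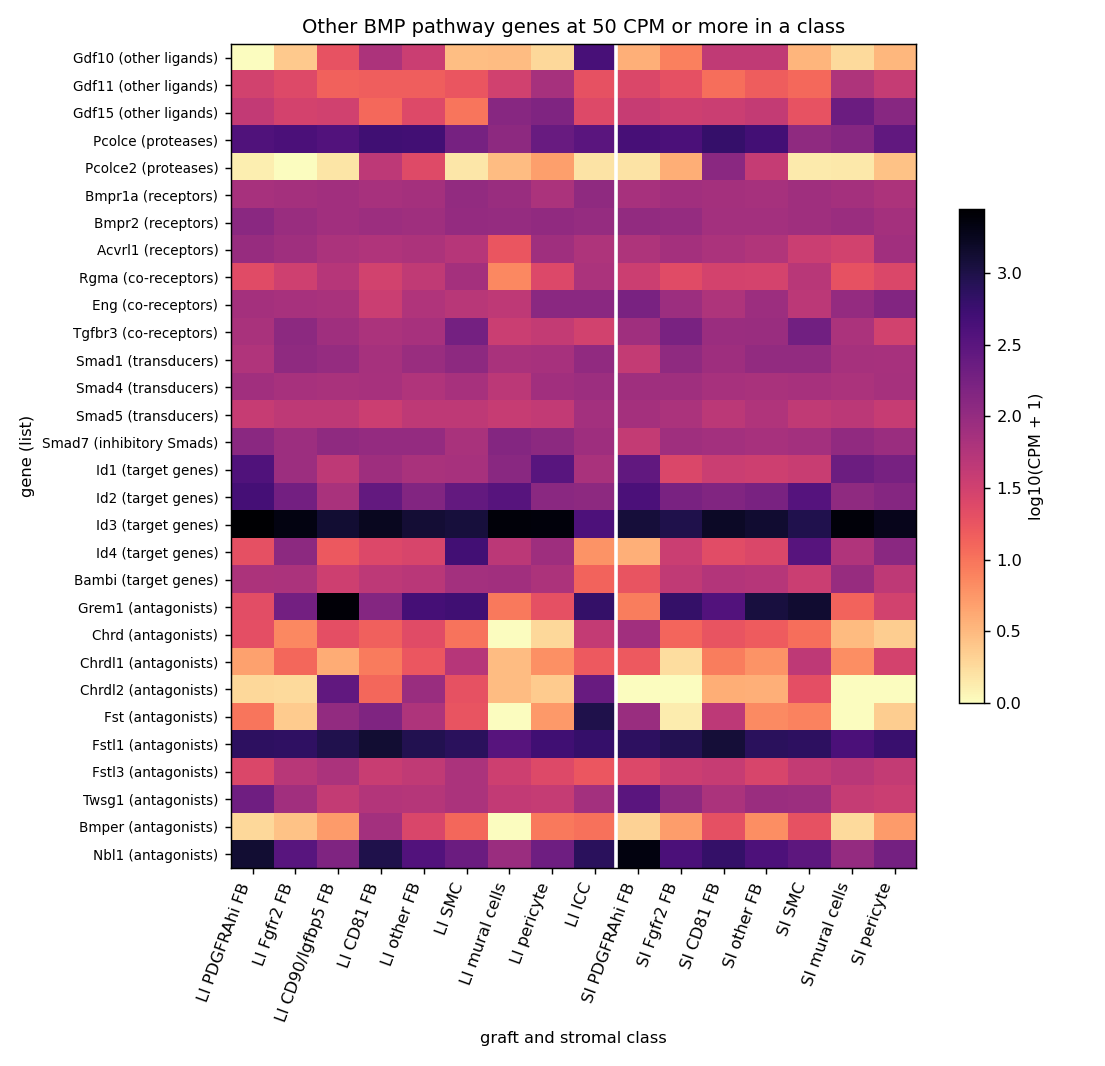
Levels (pooled CPM on a log colour scale) of pathway genes that reached 50 CPM in a class, by class and graft, grouped by role. PDGFRAhi FB have high Nbl1 (1296 and 2211 CPM), Twsg1 (202 and 318 CPM) and Id1 (379 and 268 CPM). Their Grem1 (20.4 and 7.72 CPM) is lower than in the remaining FB classes. Grem1 is also low in pericytes (19.2 and 29.7 CPM) and mural cells (8.19 and 12.4 CPM).

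Of 14 other ligands listed, 3 reached 10 CPM in each graft. Gdf10 was highest in LI ICC (441 CPM), Gdf15, a stress-induced ligand, in LI pericytes (147 CPM) and SI mural cells (223 CPM), and Gdf11 in LI pericytes (69.0 CPM) and SI mural cells (60.2 CPM). Bmp10 and Bmp8b had no UMI in any of these classes. Of 4 partners of Bmp1, the procollagen proteinase enhancers Pcolce (514 and 620 CPM) and Pcolce2 (45.6 and 119 CPM) reached 10 CPM, and both were highest in CD81 FB, the class with the highest Bmp1, whereas its relatives Tll1 and Tll2 did not reach 10 CPM.

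Across the 14 LI and 12 SI stromal clusters, the genes most like each member over 8107 genes were ranked by the lower of their Pearson correlations in the 2 grafts, a description of points that share libraries and depth. Bmp1 was most like Fbn1 (0.92 in the LI and 0.96 in the SI graft) and Col1a1, genes of the extracellular matrix, followed by Entpd2, and Bmp4 most like Csf2ra (0.95 and 0.94), Negr1 and Gm15222. Bmp5 was most like Foxf2 (0.93 and 0.96), a forkhead factor of gut mesenchyme, Col6a4 and Rbm46. Both Bmp3 (0.95 and 0.93) and Bmp7 (0.86 and 0.92) had Uaca as their nearest gene, followed by Bean1 and the antagonist Twsg1 for Bmp3 and by Ifngr1 and Cd38 for Bmp7. Bmp2 had weaker neighbours, with Arnt (0.74 and 0.87), Glg1 and Ftsj1. Bmp6 was too low to be ranked. Among members, Bmp3 and Bmp7 were the most alike (0.76 and 0.85), and Bmp1 was closest to Bmp4 (0.42 and 0.62), with no value above 0.34 for Bmp2, Bmp3, Bmp5 and Bmp7.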

How the data were processed

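Single-cell RNA-seq counts of 1 LI graft and 1 SI graft library were used. The authors deposited raw counts, whole numbers of UMIs per gene and cell barcode with no normalization, and the submitters' processing notes name Cell Ranger 3.1.0, Seurat 3 and the genome build mm10. Per the labels, either a 3′ or a 5′ kit was used. The annotation release was not given in the sources used here. No cell type annotation of the study was used.

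Barcodes were kept from 500 genes upwards and with mitochondrial UMIs of 10% or less, 9873 of 11568 in the LI and 7910 of 9631 in the SI library. Total counts were 63348069 and 54918006 UMIs. Scrublet (scanpy 1.11.5) called 0 and 1 doublets, so a fixed share (0.8% for every 1000 barcodes) was taken off the top of the scores (1071 and 742 of all barcodes). Each library was clustered alone in Seurat 5.3.0 (R 4.3.3) on 2000 variable genes, 30 principal components, 20 neighbours and a resolution of 0.8, with cell cycle scores regressed out and the BMP pathway, sex-linked and mitochondrial genes left out of the variable genes. Clusters were named from marker lists, with thresholds set after the clusters had been seen: for cells other than FB, 3 markers detected in at least 10% of cells and raised by a log2 of 1, and a mean over the list of 1 with a lead of 0.5 over the next class. FB clusters had 3 detected FB markers and were given the subset with a mean log2 of 0.5 over the other FB and a lead of 0.3, or were called other FB. Of 17 clusters per library, 1 LI and 2 SI clusters stayed unnamed.

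A level is the pooled CPM of a class (UMIs of the gene over all UMIs of the class, on the usual CPM scale) with an exact Poisson interval. Shares of cells have exact Clopper-Pearson intervals, after thinning to 2000 UMIs per cell where stated. Log2 ratios have a pseudocount of 1 CPM and exact binomial intervals. Background shares count all genes with at least 10 CPM. Levels were not divided by gene length, so genes are not compared with each other by level. PCR and amplification copies are removed by UMIs, but free RNA is not, and intervals and limits of 3 counts cover counting error only. The scripts were tested on simulated data. No p-value was computed, as cells are not replicates.

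Members were named in every class (Bmp6, below 10 CPM in all, partly by its range), pathway genes of fixed lists where they reached 50 CPM in a class (1 antagonist gene of these lists is not reported here), and the 3 genes most like each member. The members and lists were chosen with earlier results of these data known. Alternatives covered cell filters, doublets, resolution, joint clustering, gating of single cells, TMM scaling (edgeR 4.0.16), pseudocount, minimum level, thinning and female cells alone. Coordinates come from the GENCODE vM21 annotation of GRCm38 and promoters from RefSeq, whose table as used here held 3 of the 7 members.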

Additional observations from a re-analysis of the deposited data

Results flagged for a closer look

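Bmp2 changed its place among the classes between the grafts in 2 instances. In other FB, the Bmp2 level was below that of the other named stromal classes in the LI graft (log2 -0.86) and above it in the SI graft (0.62), so the 2 libraries moved in opposite directions. In mural cells it was above the other classes in the LI graft (0.98) and below in the SI graft (-0.22). With 1 library per graft, neither difference was tested. Other FB were made of different clusters in the 2 libraries, and the LI mural cells numbered only 84.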

How the results depend on the processing

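No paired analysis was possible because there was 1 library per graft and no replicate to leave out. The class with the highest level was the same in both grafts for 5 or 6 members under the settings tried. CD81 FB, highest for Bmp1, were not found when both libraries were clustered together, and numbered 515 LI cells at resolution 1.6, 443 with no doublet removal and 313 with the stricter filter, against 1606. Levels past 2-fold between the grafts numbered 5 over all members and classes, 8 with no doublet removal and 10 with no minimum level. In PDGFRAhi FB 1 member passed 2-fold, against 0 with the stricter cell filter, 0 when each cell was gated on its own and 2 in female cells alone. The share of PDGFRAhi FB with at least 2 ligands was 34.5% in the LI and 47.4% in the SI graft at 1000 UMIs per cell, 88.0% and 90.7% with no thinning, and 56.6% and 50.7% when each cell was gated on its own. Under that gating, 1 member instead of 2 had most of its SI UMIs in PDGFRAhi FB. The LI over SI direction turned for Bmp2 in PDGFRAhi FB with the stricter filter (0.051), gating (0.285), female cells (0.051) and TMM scaling (0.003), and in mural cells at resolution 0.4 (-0.596) and with the looser filter (-0.594). For Bmp4 it turned in CD81 FB at resolution 0.4 (0.629), in Fgfr2 FB at resolution 1.6 (-0.005) and in other FB at resolution 1.6 (-0.088), with no doublet removal (-0.173), the stricter filter (-0.221) and joint clustering (-0.147). For Bmp5 in other FB it turned under gating (0.804). In the cluster pairs, added after the data were seen, it turned for Bmp5 in the Fmo2-led (0.550) and Kcnn3-led (1.22) pairs, for Bmp4 (-3.917) and Bmp7 (0.488) in the MHC class II pair and for Bmp1 in the CD81 FB pair (0.164). The cause was not tested. Of the planned LI over SI values, 287 stayed within the counting interval of the main value, 76 moved outside it and 13 turned. A turn was counted only where the main interval excluded 0. Of the planned ratios of PDGFRAhi FB to the next class, 84 stayed within the interval, 36 moved outside it and 0 turned by this rule. Ratios whose main interval held 0, such as that of Bmp4 in the LI graft, could change sign without being counted as a turn. Depth limits Bmp6 and the 32 SI ICC.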
